A study of Homo sapiens with 3 samples.

Results

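The mRNAs of 36 genes of cholesterol synthesis, sensing and transport were followed in an RNA immunoprecipitation of MEX3A, an RNA-binding protein with KH domains. The genes were taken by symbol, and all 36 were found once in each gene table, among 57820 genes listed. They comprise 18 enzymes of the synthesis pathway, 7 regulators of the sterol-responsive transcription factors SREBP-1 and SREBP-2 (the factors themselves included), and 11 genes of cholesterol transport, uptake, efflux and storage. The cells were ACHN, an established renal cell carcinoma line, stably expressing MEX3A with a Flag tag and fixed with 0.3% formaldehyde, and libraries were made from poly(A)-selected RNA. The labels name 3 samples of this 1 line, which are input RNA, a precipitate with IgG as the background of the method, and a precipitate with anti-Flag antibody. The labels do not say whether the line was 1 clone. All samples carry the transgene, and the labels name no line without it. The IgG and Flag libraries were analysed, 1 each, and the input was not analysed here. A ratio below is therefore one precipitate against the other, with no replicate check and no p-value. More captured copies of one RNA and fewer of the abundant others cannot be told apart in shares of a library, and neither can captured RNA per cell and number of cells.

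Cholesterol is built from acetyl-CoA through mevalonate, isoprenoids, squalene and lanosterol. SREBP precursors sit in the endoplasmic reticulum bound to SCAP. When sterols are low, SCAP carries them to the Golgi, where the proteases encoded by MBTPS1 and MBTPS2 release the active factor. When sterols are high, the INSIG proteins hold the complex back. Surplus cholesterol is moved between membranes by lipid transfer proteins, exported by ABC transporters under control of the liver X receptors, or esterified for storage. Clear cell renal carcinomas are known for their stores of cholesteryl esters.

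As a set the members were no more often enriched than other genes, and the enriched ones were spread over all 3 groups. Counts totalled 5498124 after Flag and 3412864 after IgG precipitation, and levels are given as counts per 1000000 of these totals (CPM). A gene entered with at least 20 counts over both libraries, and it was called enriched if the exact 95% Clopper-Pearson interval of its ratio of Flag CPM to IgG CPM lay wholly above 2, or depleted if wholly below 0.5. The interval covers counting error only. Over all 10811 genes with enough counts, the enriched made up 28.7% and the depleted 1.32%. Of the 34 members that entered, 9 (26.5%) were enriched and 0 depleted, so the share of enriched members was close to the background. The median gene had a ratio of 1.93, and the median member one of 1.78, with 16 members above the median gene and 18 below it.

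Where a ratio of 1 lies depends on the scaling, so positions relative to other genes are given too. TMM scaling (weighted trimmed mean of log ratios) lowered every log2 ratio by 0.78. With it, 12.0% of all genes were enriched and 6.12% depleted, and the enriched made up 66.1% of the called genes against 95.6% with library totals. Of the members, 4 were then enriched and 0 depleted. These 4, SREBF1, INSIG1, GRAMD1B and SOAT1, held 56.8% of the members' Flag counts and 23.9% of their IgG counts. They are singled out after their values were seen. HMGCS1, MSMO1, SC5D, INSIG2 and STARD4 were not called with that scaling.

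Of 9 markers of renal epithelium, 8 entered and 3 (37.5%) were enriched, against 28.7% of all genes. These were PAX2, LHX1 and EPCAM, with ratios of 5.20, 5.51 and 3.91. HAVCR1, KRT8 and KRT18 had ratios of 0.681, 0.789 and 0.673, with intervals wholly below 1. PAX8, a kidney lineage transcription factor gene, was at 312 TPM in the Flag and 222 TPM in the IgG library. The epithelial cadherin gene CDH1 had 19 and 8 counts, and the kidney cadherin gene CDH16 7 and 0. The mesenchymal markers VIM and CDH2 differed. VIM was at 263.5 TPM in the Flag and 279.8 TPM in the IgG library and was not called. CDH2 had 385 Flag counts against 89 IgG counts and was enriched, with a ratio of 2.69 (2.13 to 3.42). PTPRC, HBB, CDH5, KDR and ALB, markers of leukocytes, erythroid cells, endothelium and hepatocytes, had 0 counts in both. CD68, a macrophage marker also found in lysosomes of other cells, had 30 and 13 counts. The mRNA of MEX3A itself had 103 counts against 5 and was enriched 12.8-fold (5.31 to 40.2). The transgene was present in both samples, so this does not check expression.

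**Figure D1:**
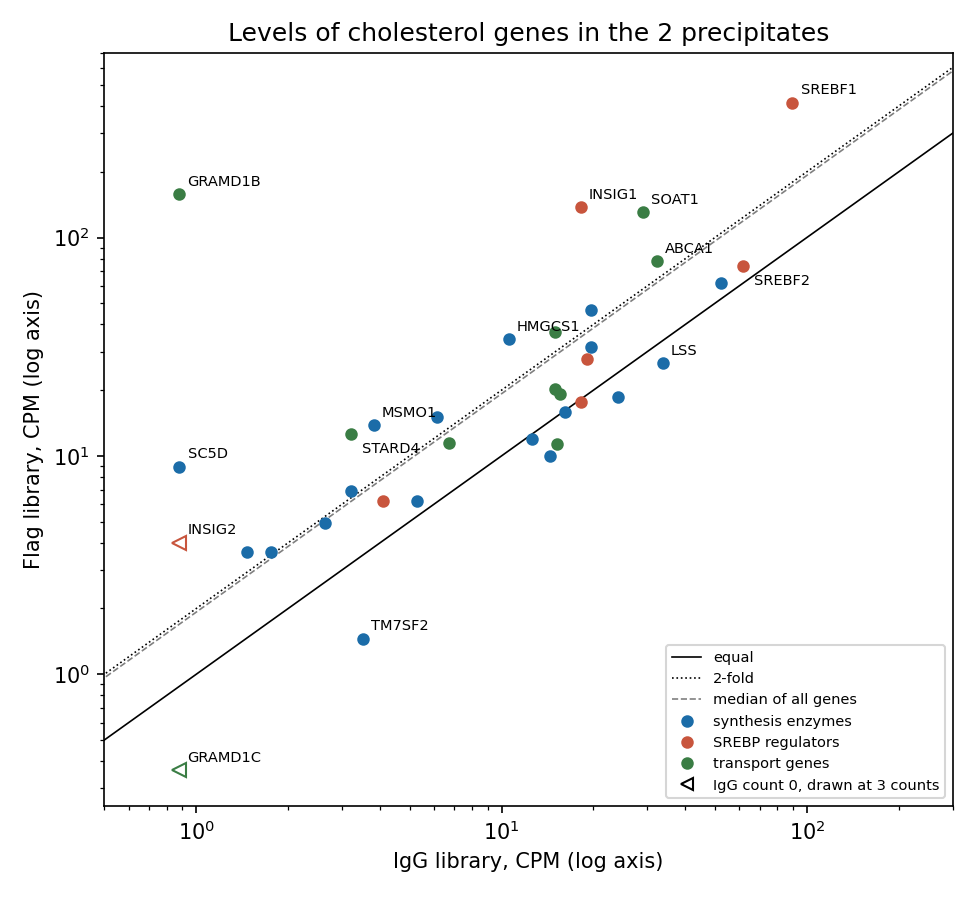
Level of each member in the IgG library (horizontal, CPM, log axis) against the Flag library (vertical, CPM, log axis), coloured by group. GRAMD1B lies far above the 2-fold line at 158 against 0.879 CPM, SREBF1 is the most abundant member in both libraries, and ABCG1, at 0 in both, is not drawn.

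The SREBP regulators differed among themselves. SREBF1, INSIG1 and INSIG2 were enriched, while SREBF2, SCAP and both protease genes lay below the median gene. SREBF1, which encodes SREBP-1, the main driver of fatty acid synthesis genes, had 2280 Flag counts and 306 IgG counts, or 415 against 89.7 CPM. It was 4.63-fold higher in the Flag library (95% interval 4.10 to 5.23), 2.40-fold above the median gene. INSIG1, which encodes the endoplasmic reticulum anchor of SCAP, had 759 counts against 62, or 138 against 18.2 CPM. Its ratio of 7.60 (5.86 to 10.01) exceeded that of 92.1% of all genes that entered. INSIG2, the second anchor gene, had 22 counts against 0. The exact interval of its ratio began at 3.40, so INSIG2 was at least 3.40-fold higher. With 3 counts standing in for the 0 IgG counts, the ratio was 4.55.

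SREBF2, which encodes SREBP-2, the main driver of cholesterol synthesis genes, had 407 counts against 211, or 74.0 against 61.8 CPM. Its ratio of 1.20 (1.01 to 1.42) lay wholly below that of the median gene. SCAP, the sterol-sensing escort of SREBP, had 97 counts against 62 and a ratio of 0.971 (0.699 to 1.36). MBTPS1, the site-1 protease gene, had 152 counts against 65 and a ratio of 1.45 (1.08 to 1.97), and MBTPS2, the site-2 protease gene, 34 against 14 and a ratio of 1.51 (0.788 to 3.04). With TMM scaling the ratios of SREBF2, MBTPS1 and MBTPS2 fell below 1. In all, 3 of 7 regulators (42.9%) were enriched, against 28.7% of all genes. The group's median log2 ratio was 0.59 against 0.95 for all genes that entered.

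Ratios of ratios between members do not depend on the scaling of the libraries, though they do depend on whether counts or TPM are used. Over 7 such pairs, chosen for related function with the values known, intervals are exact and conditional on the counts. SREBF1 exceeded SREBF2 by 3.86-fold (3.13 to 4.76). INSIG1 exceeded its partner SCAP by 7.82-fold (5.07 to 12.0), and SREBF1 exceeded SCAP by 4.76-fold (3.33 to 6.77). With TPM + 0.1 these values were 14.8 for INSIG1 over SCAP and 10.9 for SREBF1 over SCAP. MBTPS1 and MBTPS2 could not be separated at this depth (0.963, 0.446 to 1.99). At a 99% interval SREBF1 over SREBF2 kept a lower bound of 2.93.

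Each SREBF gene carries in an intron a microRNA of the miR-33 family, known to repress ABCA1, and their mature forms are shown because the pair of host mRNAs differed in the precipitate. The sequences are from RefSeq (GRCh38.p14), 5′ to 3′, with the seed, bases 2 to 8, in capitals. The miR-33a gene lies in SREBF2 (mature form at chr22:41900949-41900969, plus strand) and the miR-33b gene in SREBF1 (chr17:17813897-17813916, minus strand).
hsa-miR-33a-5p: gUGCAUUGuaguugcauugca
hsa-miR-33b-5p: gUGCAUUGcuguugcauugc
The seeds are identical. The microRNA genes MIR33A and MIR33B were listed with 0 counts and an effective length of 0 in both libraries, so these tables do not measure them. ABCA1, described below, was 2.43-fold higher in the Flag library, only 1.26-fold above the median gene, and its interval missed the enriched call. Any link between these microRNAs and the ABCA1 mRNA was not tested.

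**Figure D2:**
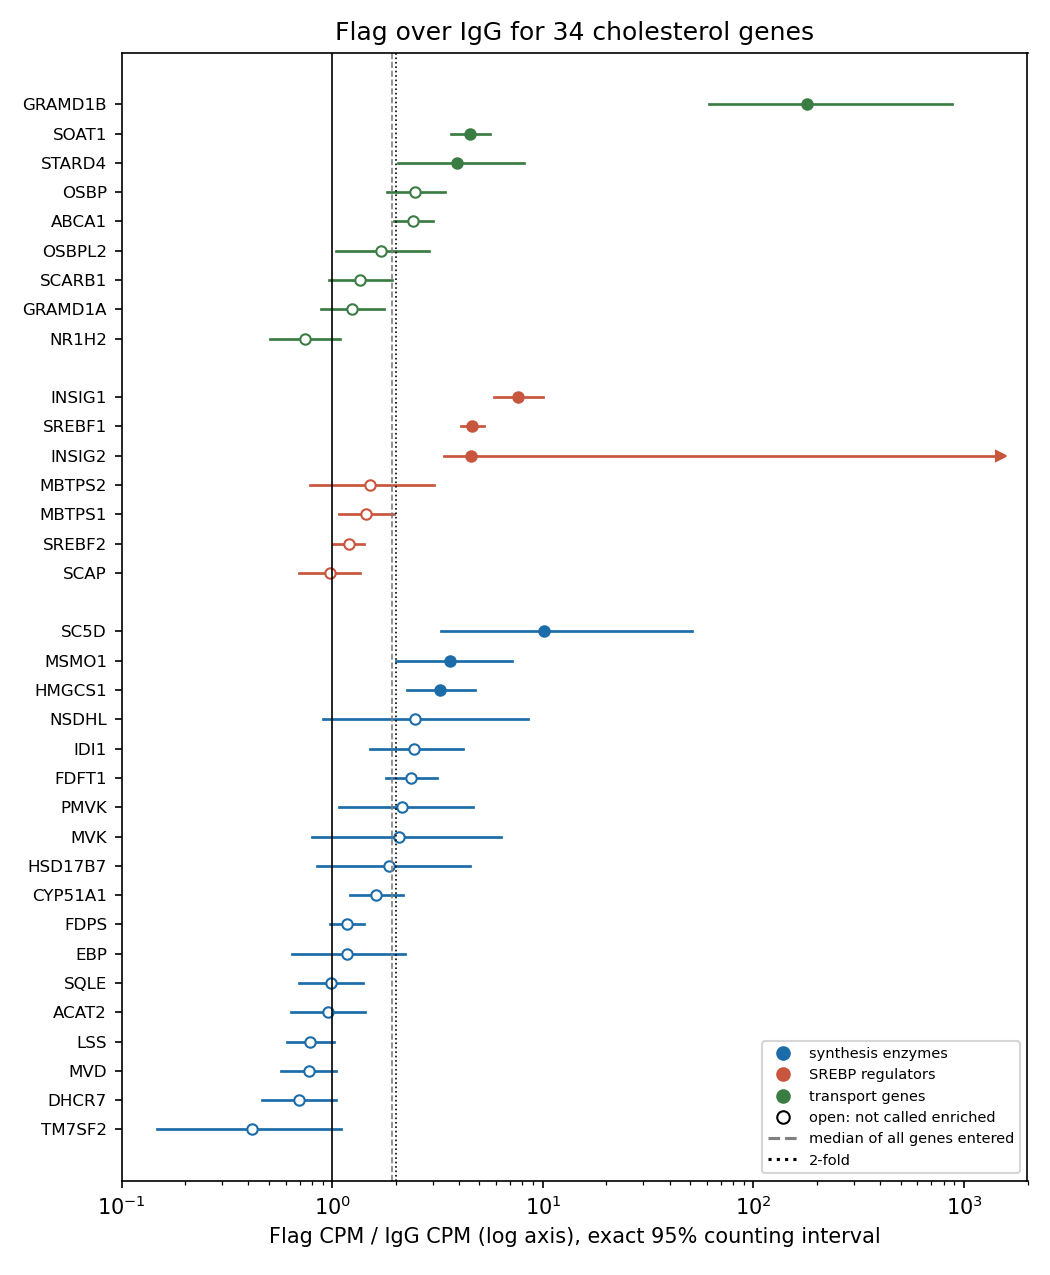
Ratio of Flag CPM to IgG CPM (horizontal, log axis) for the 34 members that entered, by group, with exact 95% counting intervals as lines and enriched members as filled points. The arrow marks INSIG2, which had 0 IgG counts and no upper bound. The dashed line is the median of all genes at 1.93, and GRAMD1B at 180 stands apart from every other member.

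Synthesis enzymes were mostly near or below the median gene. Of 18, all of which entered, 3 were enriched (16.7%, against 28.7% of all genes) and 0 depleted. In this group 8 lay above the median gene and 10 below it, and the median log2 ratio was 0.79. Of the 15 that were not called, 7 had an interval that ended below 2, while for the other 8 the interval reached past 2 and the depth did not settle the call. With TMM scaling 0 synthesis enzymes were enriched, against 12.0% of all genes.

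In the steps that make isoprenoid precursors, ACAT2, the cytosolic thiolase gene, had 66 counts against 43 and a ratio of 0.953 (0.639 to 1.43). HMGCS1, which encodes HMG-CoA synthase, had 188 counts against 36, or 34.2 against 10.5 CPM, and was enriched 3.24-fold (2.26 to 4.77). The mevalonate kinases MVK (20 against 6 counts, ratio 2.07, 0.801 to 6.30) and PMVK (38 against 11, ratio 2.14, 1.07 to 4.65) had wide intervals. MVD, the decarboxylase gene that follows them, had 102 counts against 82 and a ratio of 0.772 (0.572 to 1.05), wholly below the median gene. IDI1, the isopentenyl diphosphate isomerase gene, had 83 against 21 counts and a ratio of 2.45 (1.51 to 4.17). FDPS, which encodes farnesyl diphosphate synthase, was the most abundant enzyme mRNA at 339 counts against 179, with a ratio of 1.18 (0.978 to 1.42). Neighbouring steps thus differed, with MVD and FDPS on either side of IDI1 and no shared direction along the route.

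From squalene onward the same mixture was seen. FDFT1, the squalene synthase gene, had 256 counts against 67 and a ratio of 2.37 (1.81 to 3.15). SQLE, which encodes the rate-limiting squalene epoxidase, had 87 against 55 and a ratio of 0.982 (0.693 to 1.40), and LSS, the lanosterol synthase gene, 146 against 115 and a ratio of 0.788 (0.613 to 1.02). Both lay wholly below the median gene. CYP51A1, the first lanosterol demethylation enzyme gene, had 174 against 67 counts and a ratio of 1.61 (1.21 to 2.17).

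The enzymes that trim the sterol ring held the highest and the lowest ratio of the group. MSMO1, the C4-methyl oxidase gene, had 76 counts against 13 and was enriched 3.63-fold, with a lower bound of 2.0004 that barely cleared the threshold (upper bound 7.13). NSDHL, which acts with MSMO1, had 20 against 5 counts and a ratio of 2.48 (0.904 to 8.47), and HSD17B7, the third enzyme gene of C4 demethylation, 27 against 9 and a ratio of 1.86 (0.850 to 4.50). SC5D, the lathosterol oxidase gene, had 49 counts against 3 and a ratio of 10.1 (3.27 to 50.9). TM7SF2, a sterol C14 reductase gene, had 8 against 12 counts and a ratio of 0.414 (0.147 to 1.10). EBP, the sterol isomerase gene, had 34 against 18 counts and a ratio of 1.17 (0.644 to 2.21). DHCR7, which makes cholesterol from its last precursor, had 55 against 49 and a ratio of 0.697 (0.465 to 1.05). The enriched enzymes SC5D and MSMO1 rest on few IgG counts, 3 and 13.

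Transport and storage genes had the highest group median, a log2 ratio of 1.28 over the 9 of 11 that entered. Of these 9, 5 lay above the median gene and 4 below it. Enriched were 3 (33.3%, against 28.7% of all genes) and depleted 0. With TPM + 0.1 the group median was 0.66, below the 0.79 of all genes. GRAMD1B, which encodes an endoplasmic reticulum protein that takes up accessible cholesterol from the plasma membrane, had 870 counts against 3, or 158 against 0.879 CPM. Its ratio of 180.0 (61.4 to 874.6) was the third highest of the 10811 genes that entered. The rank is limited by the width of the interval and by genes with 0 IgG counts, which stand at 3 counts, the same IgG count as GRAMD1B. Its relative GRAMD1A had 106 counts against 53 and a ratio of 1.24 (0.885 to 1.76), and GRAMD1C had 2 counts against 0 and did not enter. GRAMD1B exceeded GRAMD1A by 145.0-fold (45.4 to 731.7). The counts of GRAMD1A, GRAMD1B and GRAMD1C were whole in both libraries. Without GRAMD1B the members' summed ratio was 2.31 in place of 2.58, and their median log2 ratio 0.77 in place of 0.83.

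Among the cytosolic carriers, STARD4, which moves sterol to the endoplasmic reticulum, had 69 counts against 11 and was enriched 3.89-fold (2.05 to 8.16). OSBP, which exchanges cholesterol for a phosphoinositide at the Golgi, had 203 counts against 51 and a ratio of 2.47 (1.81 to 3.43), and its relative OSBPL2 63 against 23 and a ratio of 1.70 (1.04 to 2.87). OSBP over OSBPL2 was 1.45 (0.782 to 2.64), a difference within counting error.

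For export and uptake, ABCA1, the exporter that loads cholesterol onto apolipoprotein A-I, had 430 counts against 110, or 78.2 against 32.2 CPM. The ABCA1 ratio of 2.43 (1.96 to 3.02) missed the call with a lower bound just under 2. SCARB1, the high-density lipoprotein receptor gene, had 111 against 51 and a ratio of 1.35 (0.961 to 1.92), and ABCA1 exceeded it by 1.80-fold (1.19 to 2.70). NR1H2, which encodes the liver X receptor beta that switches on ABCA1, had 62 against 52 and a ratio of 0.740 (0.504 to 1.09), wholly below the median gene. ABCG1, a second exporter gene, had 0 counts in both. At this depth 3 counts would be 0.546 CPM (Flag) and 0.879 CPM (IgG), so a low level of ABCG1 could go unseen. SOAT1, which encodes the enzyme that esterifies cholesterol for storage, had 718 counts against 99, or 131 against 29.0 CPM, and was enriched 4.50-fold (3.64 to 5.61).

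The authors' TPM values, which correct for the length of the isoforms estimated in each library, changed part of this picture. Per length, SREBF1 was the most abundant member in the Flag library at 215 TPM (45.6 in the IgG library), followed by INSIG1 at 70.0 (10.9) and FDPS at 68.3 (52.9). In the IgG library FDPS came first. With a pseudocount of 0.1, 44.2% of all genes had a TPM ratio above 2 and 6.59% one below 0.5, with no interval. Of the 34 members, 11 were above 2 and 2 below 0.5. SREBF1 (4.70), INSIG1 (6.38), GRAMD1B (137), MSMO1 (3.45) and STARD4 (2.38) stayed above 2. INSIG2 was listed at 1.65 TPM in the Flag library and at 0 in the IgG library. ABCA1 (3.25), FDFT1 (2.46), NSDHL (2.33), IDI1 (2.24) and PMVK (2.10) were above 2 with TPM but not called by counts. Their count ratios were above 2 as well (2.43, 2.37, 2.48, 2.45 and 2.14), with intervals that began below 2.

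HMGCS1, SC5D and SOAT1, enriched by counts, had TPM ratios of 1.20, 1.36 and 1.58. For each the mean transcript length, which RSEM weights by estimated isoform abundance, was greater in the Flag library. It was 3270 against 1336 bases for HMGCS1, 1898 against 421 bases for SC5D and 4561 against 1726 bases for SOAT1. SCAP, at 3945 against 1834 bases, had a TPM ratio of 0.431, and TM7SF2, with similar lengths in both, one of 0.425. The estimate for SC5D in the IgG library rests on 3 counts. By contrast ABCA1 was shorter in the Flag library, at 4945 against 6639 bases. Among members that entered, 7 of 34 (20.6%) were over 1.5 times longer in the Flag library, against 15.3% of all genes, and 0 were shorter by that factor, against 8.51% of all genes. One of the 7 is INSIG2, whose IgG length rests on no reads. What sets the length estimates was not tested.

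**Figure D3:**
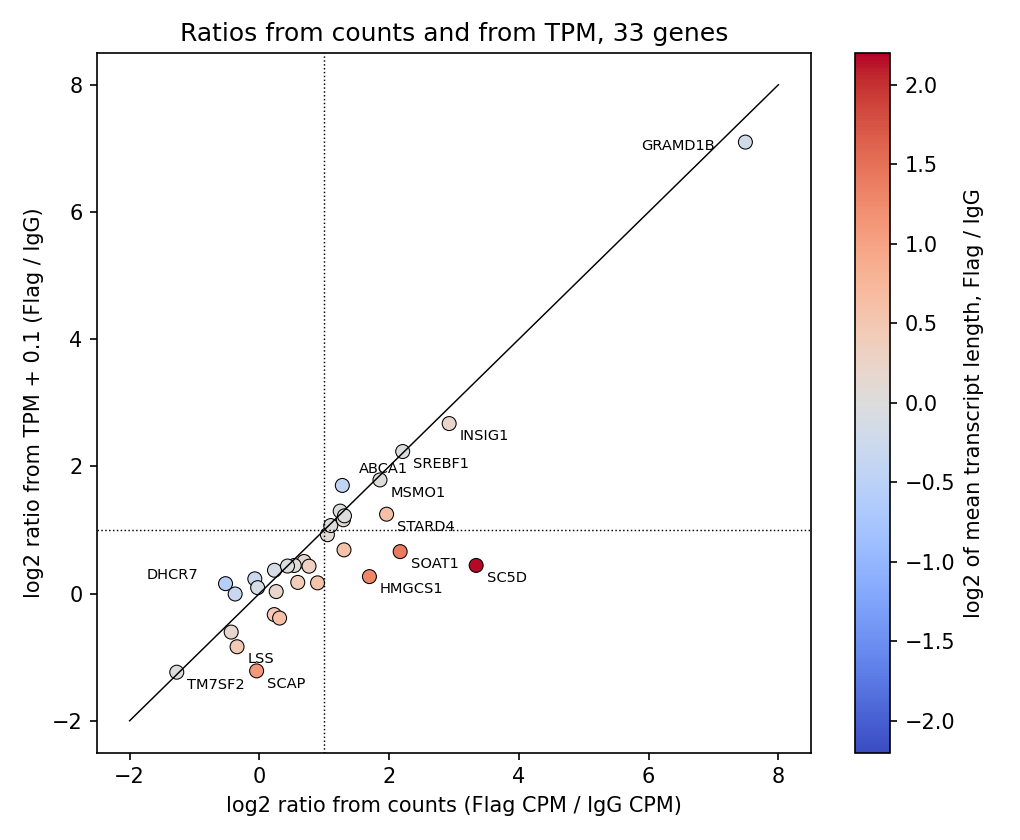
Log2 ratio from counts (horizontal) against log2 ratio from TPM + 0.1 (vertical) for the 33 members that entered with IgG counts above 0, coloured by the log2 ratio of mean transcript length, Flag over IgG. The solid line marks equal values and the dotted lines 2-fold. HMGCS1, SC5D, SOAT1 and SCAP, all longer in the Flag library, fall well below the solid line, while SREBF1, INSIG1 and MSMO1 lie close to it.

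Some members share sequence or position with other genes. Counts were fractional, beyond 0.01 of a whole number, for 6 members (ACAT2, HMGCS1, MVK, FDPS, SREBF2 and MBTPS2). FDPS summed with its 8 annotated pseudogenes gave 344 against 186 counts and a ratio of 1.15 (0.958 to 1.38). In RefSeq (GRCh38.p14), 6 members overlap a gene with at least 20 counts here, and without a stated strand setting such reads cannot be told apart. ACAT2 overlaps TCP1 (215 against 145 counts) and SOD2 (1352 against 271), and MVK overlaps MMAB (54 against 4). Of the others, IDI1 overlaps WDR37, FDPS overlaps RUSC1-AS1, MBTPS2 overlaps YY2, and SREBF1 overlaps RAI1. RAI1 had 752 Flag and 242 IgG counts, and SREBF1 2280 and 306. No sum was made for this pair, and whether reads of RAI1 were counted for SREBF1 was not tested. ACAT2 summed with TCP1 had a ratio of 0.928 (0.769 to 1.12). No sum was made with SOD2 or MMAB, each of which had more Flag counts than the member it overlaps.

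A comparison list held 49 further genes of sterol and lipid metabolism. Of 45 that entered, 18 (40.0%) were enriched, against 28.7% of all genes, and 0 depleted, and the median log2 ratio was 1.17. With TMM scaling 6 of the 45 were enriched and 2 depleted, against 12.0% and 6.12% of all genes. ERLIN1, whose product forms a sterol-responsive complex in the endoplasmic reticulum with that of ERLIN2, had 571 counts against 44 and a ratio of 8.06 (5.92 to 11.2), and ERLIN2 192 against 19 and a ratio of 6.27 (3.91 to 10.6). MYLIP, which encodes a ubiquitin ligase for lipoprotein receptors, had 25 Flag counts and 0 IgG counts and was at least 3.90-fold higher by its interval, with a ratio of 5.17 against 3 IgG counts. NCEH1, which hydrolyses cholesteryl esters, had 534 against 61 and a ratio of 5.43 (4.16 to 7.20), and the sterol carrier gene SCP2 89 against 9 and a ratio of 6.14 (3.09 to 13.9).

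Other named genes of the list act on fatty acids. SCD, the stearoyl-CoA desaturase gene, had 4644 counts against 403 and a ratio of 7.15 (6.46 to 7.94). ELOVL5, a fatty acid elongase gene, had 625 against 58 and a ratio of 6.69 (5.11 to 8.91), and MID1IP1, whose product promotes acetyl-CoA carboxylase activity, 241 against 31 and a ratio of 4.83 (3.31 to 7.26). The lowest upper bounds were those of FASN and OSBPL5. FASN, the fatty acid synthase gene, had 2889 against 2627 counts and a ratio of 0.683 (0.647 to 0.720), and OSBPL5, an oxysterol-binding protein relative, 7 against 17 and a ratio of 0.256 (0.0896 to 0.649). FASN and OSBPL5 were the pair depleted with TMM scaling.

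Promoter letters were searched as a description of the genes, and the precipitates do not measure them, since promoter DNA is not part of the captured RNA. In the 250 bases before the start sites in RefSeq (GRCh38.p14), matched by symbol for 30 of 36 members, the letters CCAAT, the box bound by the SREBP partner NF-Y, were found on either strand for 20 members (66.7%), against 37.0% of 27305 genes. They were found for 13 of 15 synthesis enzymes but 2 of 7 SREBP regulators, INSIG1 and SREBF2. The letters CACNCCAC of the sterol response element were found for 5 members (16.7%, against 5.89% of all genes). The full element, the same letters preceded by AT, was found for 1 of these, SREBF2 (3.33% of members, against 0.157% of all genes). The E-box CACGTG, another SREBP site, was found for 4 members (13.3%, against 7.73%). INSIG1 and SREBF2 are printed because both hold matches, while the ratio of the INSIG1 mRNA lay wholly above and that of the SREBF2 mRNA wholly below the median gene. Capitals mark every match to these letters on either strand, 5′ to 3′ on the gene's strand, for INSIG1 at chr7:155297628-155297877 (plus strand) and for SREBF2 at chr22:41832855-41833104 (plus strand).
INSIG1: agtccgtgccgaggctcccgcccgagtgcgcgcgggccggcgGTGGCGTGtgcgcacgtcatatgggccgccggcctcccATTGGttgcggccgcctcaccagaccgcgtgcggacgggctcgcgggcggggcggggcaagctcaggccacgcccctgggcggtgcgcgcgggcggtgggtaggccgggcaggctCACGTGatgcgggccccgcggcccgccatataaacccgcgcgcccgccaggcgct
SREBF2: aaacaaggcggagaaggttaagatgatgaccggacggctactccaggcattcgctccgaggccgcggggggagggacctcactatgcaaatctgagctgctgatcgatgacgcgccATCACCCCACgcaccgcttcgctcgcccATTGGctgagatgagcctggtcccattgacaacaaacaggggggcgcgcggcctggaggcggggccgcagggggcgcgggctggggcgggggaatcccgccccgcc
In INSIG1 the capitals are CACNCCAC on the reverse strand, CCAAT on the reverse strand and the E-box. In SREBF2 they are the full element and CCAAT on the reverse strand. The only SREBF1 start listed (bases searched chr17:17836987-17837236, minus strand) had none of these letters in the 250 bases before it. Any other SREBF1 promoter was not searched. A match of letters is a description and not a site.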

How the data were processed

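RNA immunoprecipitation with sequencing was done by the submitters in 3 samples of 1 cell line, of which the IgG and Flag libraries were analysed. Expected counts, estimated reads per gene and not normalized, and TPM, scaled per effective length to a common total, are values the authors deposited in the layout of RSEM gene output, per the file headers. The submitters' processing notes name STAR, RSEM, GRCh37 and hg19. Not given in the sources used here are versions, annotation release, read filters and strand.

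Expected counts were rounded to whole numbers and divided by the library totals to give CPM. For genes with at least 20 counts in all, the ratio of Flag to IgG CPM was given an exact 95% interval from the Flag share of counts, and calls were made as stated in the report. Where an IgG count was 0, 3 counts stood in for it, and no ratio was given where both counts were 3 or fewer. The labels name no molecular identifiers, so reads may be copies of one molecule and these bounds describe counting error alone. The procedure was tested on simulated data. Software was Python 3.11.15, SciPy 1.17.1, edgeR 4.0.16 (TMM factors only) and DESeq2 1.42.0 (median-of-ratios factors only).

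The members, the further sterol list and the tests were chosen with earlier results of these data known. The text names all members and, of the further list, the 8 with the highest lower bounds among those enriched, any depleted ones and the 2 with the lowest upper bound. Alternatives were TMM and median-of-ratios scaling, library totals that leave out mitochondrial genes and the 10 most abundant of each library, a minimum of 100 counts or none, TPM with a pseudocount of 0.1 or 1, and a 99% interval. Ratios of ratios and sums with overlapping or near-identical genes were added after seeing the data.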

Additional observations from a re-analysis of the deposited data

How the results depend on the processing

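No paired analysis was possible because each group has 1 library. SREBF1, INSIG1 and GRAMD1B stayed enriched under all 8 alternatives. The count of 9 enriched members fell to 4 with TMM scaling and to 4 with median-of-ratios scaling, and to 5 among the 22 members with at least 100 counts, where 37.9% of all genes were enriched. Enriched synthesis enzymes numbered 0 of 18 under either of these scalings. With trimmed library totals (mitochondrial genes and the 10 most abundant left out) 1 of 18 was enriched. It was 1 of 10 at a minimum of 100 counts and 5 of 18 with TPM + 0.1. TPM ratios have no interval, so with TPM enriched means only a ratio above 2 and depleted only one below 0.5. Of all genes, 12.0% (TMM), 11.7% (median-of-ratios), 20.3% (trimmed totals) and 44.2% (TPM + 0.1) were enriched, in place of 28.7%. Numbers of enriched members and enzymes have to be read against these shares. By that rule TPM at either pseudocount gave 2 depleted members, the synthesis enzyme gene TM7SF2 and the SREBP regulator gene SCAP. The count ratio of TM7SF2, 0.414, was already below 0.5 but its interval was not, while that of SCAP was 0.971. Of the further sterol genes, 6 were enriched and 2 depleted with either scaling, and 3 (TPM + 0.1) or 2 (TPM + 1) were depleted with TPM.

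Median log2 ratios with TMM and median-of-ratios scaling were 0.015 and 0.0029 for synthesis enzymes, -0.19 and -0.20 for SREBP regulators, and 0.50 and 0.49 for transport genes. The synthesis median was 0.10 over the 10 enzymes with at least 100 counts, where that of all genes was 1.04, and it was 0.46 with trimmed totals, 0.32 with TPM + 0.1 and 0.30 with TPM + 1. The transport median was 0.95 with trimmed totals, 0.66 with TPM + 0.1 and 0.60 with TPM + 1. A change of scaling or totals moves every gene alike, so the shifts with these follow from its construction.

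Members whose ratio crossed 1, none of them called, were with TMM and median-of-ratios scaling CYP51A1 (0.940 and 0.932), MBTPS2 (0.879 and 0.872), SCARB1 (0.788 and 0.781), GRAMD1A (0.724 and 0.718), OSBPL2 (0.991 and 0.983), MBTPS1 (0.846 and 0.839), EBP (0.684 and 0.678), FDPS (0.685 and 0.680) and SREBF2 (0.698 and 0.692). With trimmed totals GRAMD1A (0.986), EBP (0.932), FDPS (0.934) and SREBF2 (0.951) did so. With TPM + 0.1 and TPM + 1 it was GRAMD1A (0.766 and 0.781), SQLE (1.07 and 1.06), ACAT2 (1.17 and 1.15), EBP (0.795 and 0.817) and DHCR7 (1.11 and 1.11). MBTPS1 over MBTPS2 was 1.20 with TPM + 0.1. The cause of the differences between counts and TPM was not tested beyond the lengths given above. Calls lost at a 99% interval were those of MSMO1 and STARD4. With 3 or fewer IgG counts, the sizes for GRAMD1B, SC5D and INSIG2 are limited by depth.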
